A study of Homo sapiens and Mus musculus with 24 samples.

Results

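The 10 immediate early genes FOS, FOSB, JUN, JUNB, EGR1, IER2, ATF3, DUSP1, MYC and KLF6 were examined in UPA-seq, in which RNA is recovered from the aqueous phase of a phenol-chloroform extraction with or without UV irradiation of the cells. The genes were chosen by symbol, and all 10 were found among 58381 human genes and, as mouse orthologues, among 53715 mouse genes. Human HepG2 cells (a hepatocellular carcinoma line), human HEK293 cells (an embryonic kidney line), mouse Neuro2a cells (a neuroblastoma line) and HippCulture (primary hippocampal neurons of E16.5 mouse embryos) were each sequenced in 3 UV-irradiated and 3 nonirradiated samples, 24 in all. Irradiated cells stood in ice-cold buffer during the UV exposure and were then extracted with TRIzol, and no recovery period is described. Whether the nonirradiated dishes were moved to the same buffer is not given in the sources used here, so that handling and UV cannot be told apart. HippCulture had been treated with AraC against dividing glial cells, and the methods name the kidney line HEK293T where the labels write HEK293.

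Immediate early genes are transcribed within minutes of a stimulus, without new protein synthesis, by factors that are already present in the cell and are switched on by MAP kinases. Many encode transcription factors, and their mRNAs are often short-lived because AU-rich elements in the 3′ UTR recruit decay factors. UV light is a classic inducer of this program when cells are left to respond, through the JNK and p38 kinases. UV light also crosslinks RNA to protein, and crosslinked RNA is lost from the aqueous phase. A count after irradiation thus depends on both the RNA in the cell and the share of it that was recovered, and the counts cannot tell these apart. The question put to the data was whether these genes moved further upon irradiation than other genes did.

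The AU-rich elements are shown because they mark the mRNAs of this family, and the promoter sites because they are the landing sites of the factors that switch it on. The pentamer ATTTA, searched on the transcribed strand, was present in the 3′ UTR of 9 of 10 members in each species, against 65.5% of all human and 61.6% of all mouse 3′ UTRs. IER2 was the exception in both species. The nonamer TTATTTATT, which contains the pentamer, was found in FOS and DUSP1 of both species, against 7.9% of human and 6.9% of mouse 3′ UTRs, whose lengths differ from those of the members. Each line gives a 30-base window of the 3′ UTR, 5′ to 3′, with the nonamer in capitals (hg38 for human, mm10 for mouse).
FOS, chr14:75282060-75282089, + strand: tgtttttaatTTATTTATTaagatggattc
DUSP1, chr5:172768642-172768671, - strand: gggctggtccTTATTTATTtaacttcaccc
Fos, chr12:85477103-85477132, + strand: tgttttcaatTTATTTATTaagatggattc
Dusp1, chr17:26506158-26506187, - strand: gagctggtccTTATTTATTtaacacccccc

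Human promoters, the stretch from 250 bases before to 50 bases after the RefSeq transcript start (GRCh38.p14), were searched on both strands for 3 motifs. The CArG box, bound by SRF, was found in 1.29% of 35116 promoters and in 1 of the 10 members, EGR1, which held it at positions -105 and -83 relative to the start. The CREB and ATF site TGACGTCA was found in 1.85% of promoters and in 1 member, DUSP1, at position -125. The AP-1 site TGACTCA, on either strand, was found in 4.95% of promoters and in 0 members within this stretch. The windows below carry the motif in capitals.
EGR1, chr5:138465364-138465393, + strand: gccggtcctgCCATATTAGGgcttcctgct
EGR1, chr5:138465386-138465415, + strand: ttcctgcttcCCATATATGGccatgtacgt
DUSP1, chr5:172771302-172771331, - strand: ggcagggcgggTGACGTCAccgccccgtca

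The libraries held 6910907 to 53511592 counts assigned to genes, with the HepG2 libraries the deepest. The labels were checked against marker genes. The 6 hepatocyte markers summed to 19700 to 27000 CPM (counts relative to the library total) in nonirradiated HepG2 and to at most 1.05 CPM in HEK293. The 5 neuroblast markers summed to 143 to 150 CPM in nonirradiated Neuro2a and to 85.4 to 110 CPM after UV. The 6 neuron markers summed to 664 to 773 CPM there without and 265 to 301 CPM with UV. In HippCulture the 6 neuron markers summed to 3230 to 3620 CPM without and 1650 to 2160 CPM with UV, and the 4 astrocyte markers to 572 to 672 CPM without and 482 to 618 CPM with UV, so astrocyte RNA was present. The part of these differences in the results below was not tested. In bulk RNA fewer cells of a type, less RNA per cell and a smaller recovered share of the RNA cannot be told apart. The TMM factors, which align the bulk of the genes between libraries, averaged 1.57 in nonirradiated and 0.64 in irradiated HepG2 samples; the same averages were 1.31 and 0.77 (HEK293), 1.51 and 0.66 (Neuro2a) and 1.22 and 0.83 (HippCulture). Every change below is relative to that alignment unless the library size alone is named, and normalized CPM are CPM on the TMM-scaled library size.

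JUNB was called higher upon UV irradiation in all 4 cell types and KLF6 lower in 3, in fits without a replicate block. No member was called higher in any cell type once libraries were scaled by library size alone. In HepG2, 7 of 10 members rose and 1 fell at an adjusted p under 0.05, where 38.1% of all 20117 tested genes rose and 40.7% fell. Those 20117 genes include 13735 protein-coding ones, the class of all members. The HepG2 median log2 fold change was -0.08 over all genes and 0.17 over protein-coding ones. Shares among protein-coding genes alone are not given here, for any cell type. In HEK293, 3 of 10 members rose and 0 fell, where 24.2% of 20472 tested genes rose and 26.4% fell. With the replicate number as a block, 4 members rose and 1, KLF6, fell there, where 32.7% of genes rose and 35.3% fell. In fits without a replicate block the HEK293 count of 3 became 0 without irradiated replicate 2 or 3, 1 without nonirradiated replicate 1 or 3, and 0 when at least 10 counts were required in every sample. In Neuro2a, 4 of 9 tested members rose and 3 fell, against 28.9% and 33.0% of 17425 genes. In HippCulture, 3 of 10 members rose and 1 fell, against 26.1% and 25.9% of 18488 genes. The share of members that rose was thus near that of all genes in HEK293 and HippCulture and above it in HepG2. In Neuro2a it was above with 4 of 9, and the share that fell was near that of all genes. That count of 4 became 3 with DESeq2 as the test or for size factors and with TMM on protein-coding genes, where Dusp1 was not called. It was also 3 when every gene with at least 1 count was tested or 10 counts were required in every sample. The replicate block gave 5. A count of 3 of 9 is near the share of all genes.

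The median log2 fold change of the members was 0.54 for HepG2, 0.41 for HEK293, 0.33 for Neuro2a and -0.05 for HippCulture, beside medians over all tested protein-coding genes of 0.17, 0.01, -0.03 and 0.05. Ranked among the tested protein-coding genes of the same cell type, a rank that a shift common to all genes leaves in place, the members spread from the 4.7 percentile (Klf6 in HippCulture) to the 85.3 percentile (Ier2 in HippCulture). No tested member stood above the 85.3 percentile in any of the 4 cell types.

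**Figure D1:**
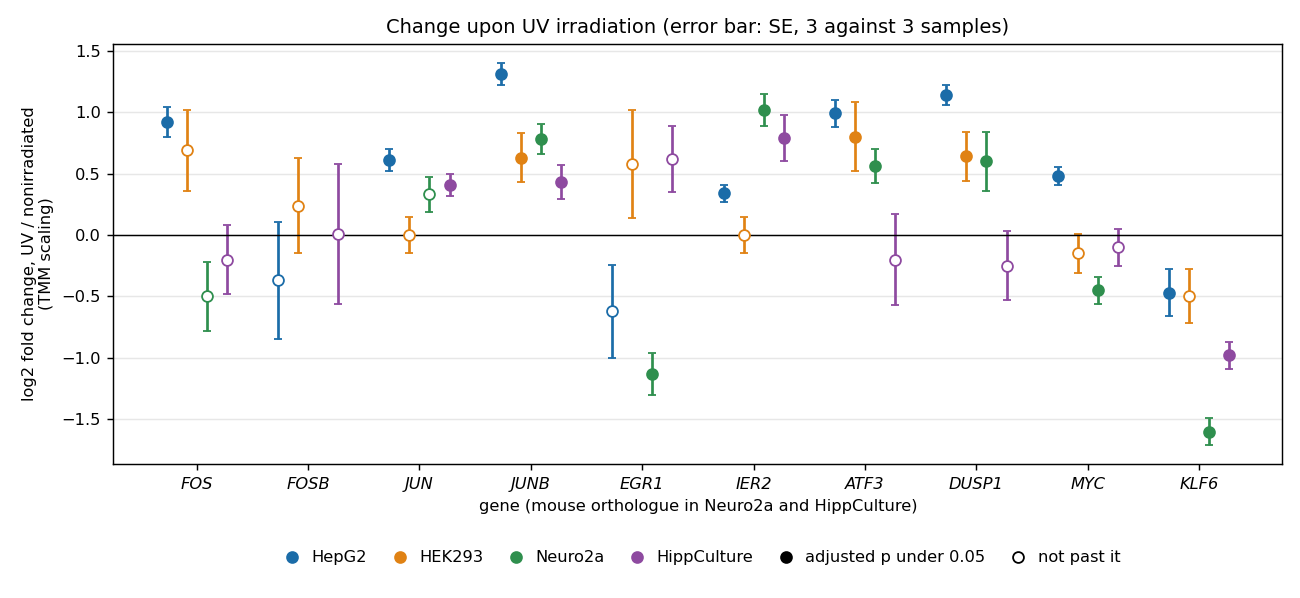
Log2 fold change upon UV irradiation (vertical axis, TMM scaling) with its standard error for each of the 10 genes (horizontal axis) in HepG2, HEK293, Neuro2a and HippCulture, 3 against 3 samples; filled points passed an adjusted p of 0.05. JUNB was above 0 in all 4 cell types, a direction that library size alone turned, while KLF6 was below 0 in all 4 under every scaling tried. Library size alone moves all genes down, so it can turn only values above 0.

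**Figure D2:**
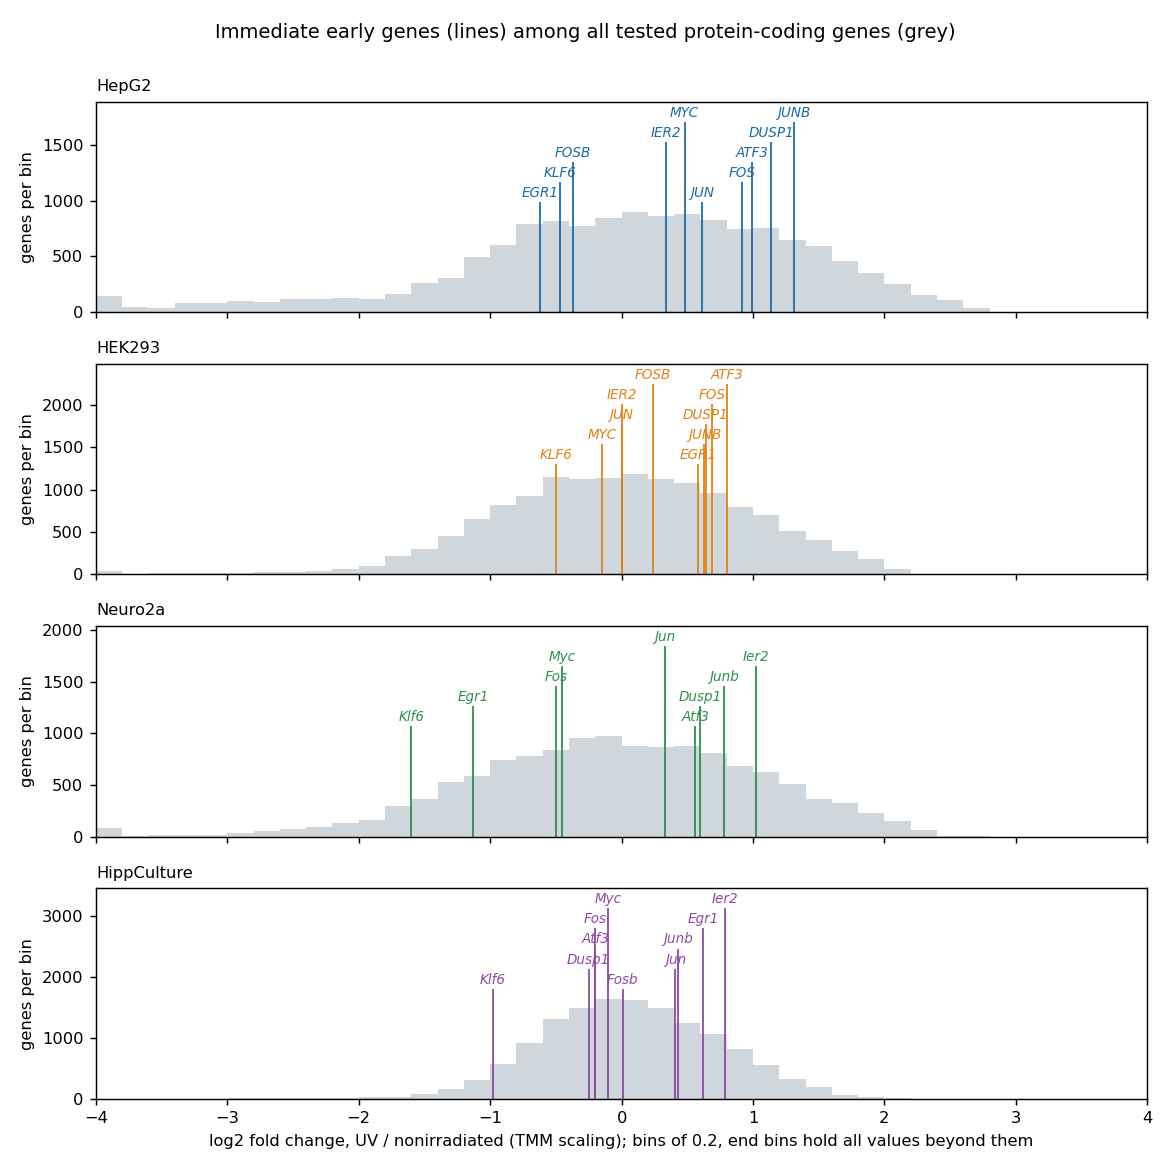
Number of tested protein-coding genes (vertical axis) by log2 fold change upon UV irradiation (horizontal axis, TMM scaling, bins of 0.2) in each cell type, with the immediate early genes as named lines. The lines fall between the 4.7 and the 85.3 percentile. Klf6 stands in the lower tail in both mouse cell types, at the 4.7 percentile in HippCulture and the 7.4 percentile in Neuro2a.

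JUNB, a JUN family subunit of the dimeric AP-1 transcription factor, was the member that rose in the most cell types on the TMM scale. It is a gene of 1 exon at chr19:12791496-12793315 (hg38, + strand), and mouse Junb lies at chr8:84974484-84978718 (mm10, - strand). In HepG2 its normalized CPM were 5.9, 6.95 and 6.63 in the nonirradiated and 15.7, 16.8 and 15.8 in the irradiated samples, and the log2 fold change was 1.31 (SE 0.09, adjusted p = 2.1e-06), at the 83.4 percentile of protein-coding genes. In Neuro2a the normalized CPM of Junb were 78.8, 78.4 and 70.8 without and 105, 142 and 145 with UV (log2 fold change 0.78, SE 0.12, adjusted p = 6.9e-05). The groups did not overlap in either line. In HEK293 its normalized CPM were 12.4 to 16.7 without and 17.6, 24.6 and 28.3 with UV, also without overlap (0.63, SE 0.20, adjusted p = 0.028), although 5 of the 6 unblocked fits that left out a sample lost this call, the exception being the fit without irradiated replicate 1. Each irradiated HEK293 sample was above the nonirradiated sample of its number, and with the replicate number as a block the adjusted p of JUNB was 1.5e-06. In HippCulture they were 16.0, 21.8 and 16.3 without and 19.8, 26.6 and 26.8 with UV, groups that overlapped, and the change of 0.43 (SE 0.14, adjusted p = 0.015) lost its call without irradiated replicate 2 (adjusted p = 0.055) or 3 (adjusted p = 0.1). Scaled by library size alone, JUNB had log2 fold changes of -0.0026 (HepG2), -0.12 (HEK293), -0.42 (Neuro2a) and -0.13 (HippCulture), so the direction turned in each. JUNB shares 14.2% of its exon bases with HOOK2 on the opposite strand, and mouse Junb 7.5% with Prdx2, and reads there were counted for both genes, without a stated strand setting.

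JUN, the founding AP-1 subunit and the target of the JNK kinases, rose in HepG2 and HippCulture on the TMM scale, and library size alone turned the direction in both. In HepG2 its normalized CPM were 12.8, 14.1 and 14.6 without and 23.2, 20.2 and 20.1 with UV (log2 fold change 0.61, SE 0.09, adjusted p = 2.2e-04, library size alone -0.70). In HippCulture they were 49.4, 53.1 and 52.2 without and 61.9, 73.8 and 71.0 with UV (0.41, SE 0.09, adjusted p = 5.8e-04, library size alone -0.14). Groups did not overlap in either. In HEK293, where JUN was most abundant, its normalized CPM were 216, 288 and 245 without and 229, 264 and 259 with UV, with a log2 fold change of 0.00 (SE 0.15, adjusted p = 0.98). The Neuro2a value of 0.33 (SE 0.14, adjusted p = 0.056) was not called, though it was with the replicate number as a block (adjusted p = 0.0074). Mouse Jun shares 7.3% of its exon bases with the antisense gene Junos.

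FOS, which pairs with JUN proteins in AP-1, rose in HepG2, where its normalized CPM were 2.45, 2.46 and 2.42 without and 4.21, 4.99 and 4.71 with UV (log2 fold change 0.92, SE 0.12, adjusted p = 1.1e-04, library size alone -0.38). In HEK293 they were 1.61, 3.00 and 3.72 without and 3.75, 3.95 and 5.76 with UV, a gap of 0.69 (SE 0.33) that was not called by the fit of 3 against 3 samples (adjusted p = 0.11). The replicate numbers of HEK293 were taken as pairing, and with the replicate number as a block FOS was called (log2 fold change 0.68, adjusted p = 0.0062). Mouse Fos was not called, at -0.50 (SE 0.28, adjusted p = 0.14) in Neuro2a and -0.20 (SE 0.28, adjusted p = 0.58) in HippCulture. FOSB, another FOS family subunit that neurons induce upon activity, was near the detection limit, with 1 to 43 counts per sample over the 4 cell types. It was not tested in Neuro2a, whose counts were 3, 4 and 3 without and 1, 4 and 3 with UV, and its values of -0.37 (SE 0.48) in HepG2, 0.24 (SE 0.39) in HEK293 and 0.01 (SE 0.57) in HippCulture were not called.

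**Figure D3:**
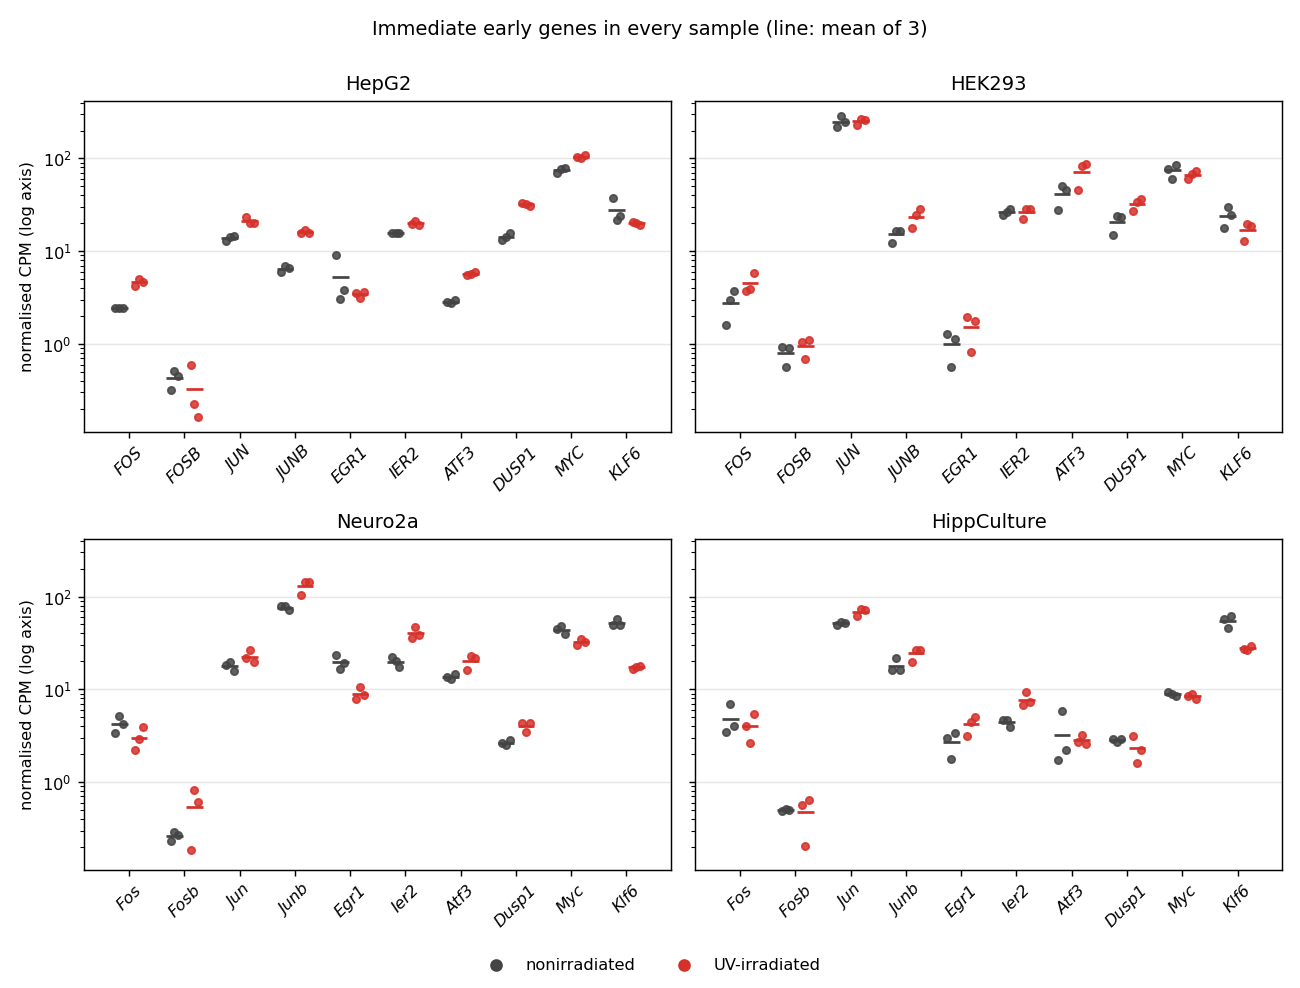
Normalized CPM (vertical log axis) of each of the 10 genes (horizontal axis) in every nonirradiated (grey) and UV-irradiated (red) sample of the 4 cell types, with a line at the mean of 3. The red points of JUNB in HepG2, 15.7 to 16.8, stand above the grey points, 5.9 to 6.95, and those of Klf6 in Neuro2a, 16.4 to 17.7, stand below the grey ones, 49.0 to 57.4.

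ATF3, a stress-induced bZIP factor that pairs with JUN proteins, rose in 3 cell types. In HepG2 its normalized CPM were 2.84, 2.74 and 3.01 without and 5.51, 5.63 and 5.96 with UV (log2 fold change 0.99, SE 0.11, adjusted p = 3.6e-05, library size alone -0.31). In Neuro2a they were 13.6, 12.9 and 14.5 without and 16.0, 22.8 and 21.6 with UV (0.56, SE 0.14, adjusted p = 0.0044, library size alone -0.64). Groups stood apart in both. In HEK293 the values were 27.8, 50.9 and 45.4 without and 45.8, 82.9 and 86.4 with UV, groups that overlapped (0.80, SE 0.28, adjusted p = 0.038, library size alone 0.04). Replicate 1 was the lowest in both groups, the block on the replicate number gave an adjusted p of 5.9e-12, and the unblocked call was lost in 4 of the 6 fits that left out a sample, those without nonirradiated replicate 1 or 3 or irradiated replicate 2 or 3. In HippCulture nonirradiated replicate 2 was high, at 5.80 against 1.74 and 2.19, and the log2 fold change of -0.20 (adjusted p = 0.68) became 0.53 (adjusted p = 0.15) without it.

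DUSP1, a phosphatase that switches MAP kinases off again and so limits the immediate early response, rose in the same 3 cell types. Its normalized CPM in HepG2 were 13.2, 14.4 and 15.6 without and 33, 31.9 and 30.9 with UV (log2 fold change 1.14, SE 0.08, adjusted p = 2.4e-06, library size alone -0.16). In HEK293 they were 14.8, 24.1 and 23.1 without and 26.9, 33.7 and 36.1 with UV (0.64, SE 0.20, adjusted p = 0.027, library size alone -0.12). The groups stood apart in both, and the HEK293 call was lost without irradiated replicate 2 or 3 in the unblocked fit, while the block on the replicate number gave an adjusted p of 1.4e-07. In Neuro2a 17 to 34 counts per sample gave 2.65, 2.48 and 2.86 without and 4.28, 3.50 and 4.31 with UV (0.60, SE 0.24, adjusted p = 0.043, library size alone -0.59). That call was lost in 5 of 6 fits without a sample, and DESeq2 gave an adjusted p of 0.15. The HippCulture value of -0.25 (SE 0.28, adjusted p = 0.46) rested on 8 to 30 counts per sample.

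IER2, a short nuclear protein of the immediate early class, rose in HepG2, Neuro2a and HippCulture. In Neuro2a its normalized CPM were 22.1, 20.1 and 17.2 without and 35.8, 46.7 and 38.6 with UV (log2 fold change 1.02, SE 0.13, adjusted p = 1.1e-05, library size alone -0.17). In HippCulture they were 4.65, 4.66 and 3.88 without and 6.69, 9.28 and 7.24 with UV (0.79, SE 0.19, adjusted p = 0.0017, library size alone 0.24). Groups stood apart in both. HepG2 showed a small rise from 15.6, 15.9 and 15.7 to 19.6, 21 and 19.4 (0.34, SE 0.07, adjusted p = 0.0019, library size alone -0.96), which was not called when TMM was computed on protein-coding genes only (0.11, adjusted p = 0.19). HEK293 gave 0.00 (SE 0.15, adjusted p = 0.98). IER2 shares 30.8% of its human exon bases with a lncRNA on the opposite strand.

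KLF6, a zinc-finger transcription factor encoded at chr10:3775996-3785281 (hg38, - strand) and, in mouse, at chr13:5861482-5870394 (mm10, + strand), was the member that fell in the most cell types. Its log2 fold change was below 0 under every scaling in every cell type. Library size alone moves all genes down, so that setting could not have turned KLF6. In Neuro2a the normalized CPM of Klf6 were 49.0, 57.4 and 49.6 without and 16.4, 17.5 and 17.7 with UV (log2 fold change -1.60, SE 0.11, adjusted p = 3.9e-08), at the 7.4 percentile. In HippCulture they were 57.4, 46.0 and 61.2 without and 27.2, 26.4 and 29.3 with UV (-0.98, SE 0.11, adjusted p = 3.1e-07), at the 4.7 percentile. Groups stood wide apart in both mouse cell types. In HepG2 they were 37.5, 21.6 and 24.1 without and 20.6, 20.2 and 19.4 with UV (-0.47, SE 0.19, adjusted p = 0.044), and the call was lost without irradiated replicate 1, 2 or 3. Nonirradiated replicate 1 was the highest, and without it the value was -0.26 (adjusted p = 9.9e-05). In HEK293 they were 18.0, 29.7 and 24.7 without and 12.9, 19.5 and 18.7 with UV (-0.50, SE 0.22, adjusted p = 0.09), and with the block on the replicate number KLF6 was called lower (-0.50, adjusted p = 5.5e-05). The block thus gave 4 higher and 1 lower of the 10 members in HEK293, where it called 32.7% of all genes higher and 35.3% lower. KLF6 has the longest 3′ UTR of the members, 3543 bases in human and 3111 in mouse, at the 87.5 and 89.6 percentile of all genes. In HepG2 the shortest 3′ UTRs, of JUNB (500 bases), DUSP1 (666) and FOS (806), went with log2 fold changes of 1.31, 1.14 and 0.92. The longest, of FOSB (2167, not called) and KLF6, went with -0.37 and -0.47, while EGR1 (1222, not called) stood at -0.62. The others, IER2 (1053), ATF3 (1220), JUN (1284) and MYC (1993), stood at 0.34, 0.99, 0.61 and 0.48, which is not the order of their lengths. Mouse Myc, with the shortest 3′ UTR at 442 bases, fell in Neuro2a. Mouse Egr1 and Jun, at 1216 and 1233 bases, fell in Neuro2a and rose in HippCulture, respectively. The paper reports a mild correlation of 3′ UTR length with the decrease in all its cell types. The part of length in the changes of the members was not tested.

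EGR1, a zinc-finger factor switched on by SRF and ERK signaling, fell in Neuro2a, from normalized CPM of 23.2, 16.7 and 19 to 7.82, 10.5 and 8.63 (log2 fold change -1.13, SE 0.17, adjusted p = 5.5e-05), and the groups did not overlap. In HippCulture the values were 3.00, 1.76 and 3.38 without and 3.13, 4.44 and 5.04 with UV, with overlap, and 0.62 (SE 0.27) was not called (adjusted p = 0.061), though it was without nonirradiated replicate 3 (adjusted p = 0.024) or irradiated replicate 1 (adjusted p = 0.028). HepG2 nonirradiated replicate 1 stood at 9.06 against 3.06 and 3.86, and the value of -0.62 (SE 0.38, adjusted p = 0.16) shrank to -0.07 (adjusted p = 0.64) without it. Without nonirradiated replicate 2 it was -0.92 and was called (adjusted p = 0.016). Nonirradiated replicate 1 was also the highest of its group for KLF6. HEK293 had 7 to 16 counts per sample and a log2 fold change of 0.58 (SE 0.44, adjusted p = 0.29).

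MYC, a bHLH factor that drives growth genes, moved in opposite directions in HepG2 and Neuro2a. Its normalized CPM in HepG2 were 69.3, 76.6 and 79.1 without and 104, 101 and 108 with UV (log2 fold change 0.48, SE 0.07, adjusted p = 3.3e-04, library size alone -0.83). In Neuro2a they were 44.9, 47.6 and 39.3 without and 29.8, 34.7 and 32.0 with UV (-0.45, SE 0.11, adjusted p = 0.0028). Both pairs of groups stood apart, and the 2 lines are of different species and were not tested against each other. The values of -0.15 (SE 0.16, adjusted p = 0.46) in HEK293 and -0.10 (SE 0.15, adjusted p = 0.61) in HippCulture were not called.

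The scale decided the sign of most increases. Going from TMM to library size alone moved the median log2 fold change of all tested genes by -1.31 (HepG2), -0.76 (HEK293), -1.19 (Neuro2a) and -0.54 (HippCulture). Under library size alone 0 members were called higher in any cell type, where 8.56%, 7.59%, 6.06% and 7.13% of all genes were, and 8, 4, 8 and 5 members were called lower, beside 78.7%, 54.7%, 73.8% and 49.5% of all genes. The median of the members was then -0.76, -0.35, -0.87 and -0.58. The log2 fold change of JUNB, for example, fell by a similar amount to that of the median gene, from 1.31 to -0.0026 in HepG2.

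**Figure D4:**
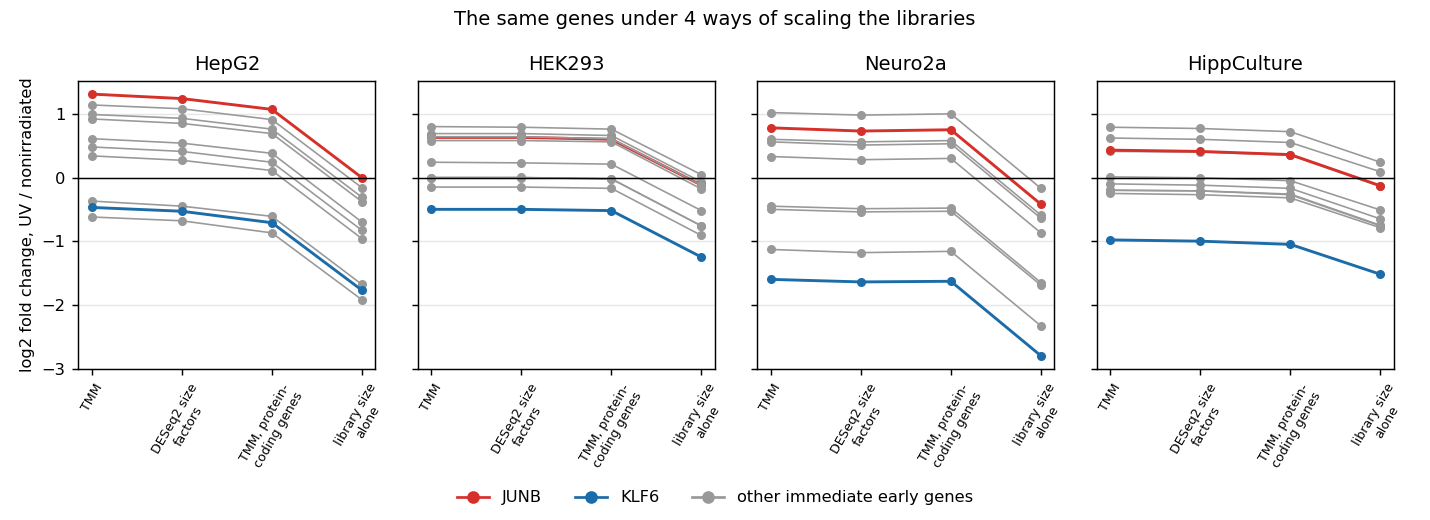
Log2 fold change upon UV irradiation (vertical axis) of the immediate early genes under 4 ways of scaling the libraries (horizontal axis) in each cell type; JUNB in red, KLF6 in blue, the others in grey. TMM and DESeq2 size factors differ little, whereas library size alone moves every line down, which takes JUNB below 0 in all 4 cell types and leaves KLF6 below 0.

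Before irradiation the cell types held these mRNAs at different levels. Per length and library total, the highest members were MYC in HepG2 (39.3 ± 3.28 RPKM, SD, n = 3), JUN in HEK293 (92.1 ± 14.6 RPKM), Junb in Neuro2a (49.9 ± 3.21 RPKM) and Jun in HippCulture (19.6 ± 1.77 RPKM). FOSB was the lowest in every cell type, from 0.0640 RPKM in Neuro2a to 0.189 RPKM in HEK293. In HEK293 the next members after JUN were MYC (32.4 ± 6.15 RPKM), DUSP1 (13.4 ± 3.67 RPKM) and ATF3 (13.4 ± 4.20 RPKM), the last pair lying within their spread. In HippCulture Klf6 (15.1 ± 1.49 RPKM) followed Jun, and Fos (2.51 ± 1.12 RPKM) and Atf3 (1.87 ± 1.39 RPKM) could not be ordered within their spread.

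Between the nonirradiated human lines 6 of 10 members differed, as did 71.4% of all 16759 genes tested in both. JUN was lower in HepG2 than in HEK293 by a log2 difference of -3.46 (SE 0.14, adjusted p = 3.6e-11), as were ATF3 (-3.14, SE 0.25) and JUNB (-0.52, SE 0.17). EGR1 (3.12, SE 0.44), KLF6 (0.90, SE 0.22) and MYC (0.72, SE 0.13) were higher in HepG2. FOS was also higher in HepG2 once the replicate number was added as a block (0.57, adjusted p = 0.011), a fit that called 77.6% of all genes. HepG2 was sequenced on another instrument model, which cannot be told apart from the cell type. Between nonirradiated Neuro2a and HippCulture 6 of 9 members differed, beside 75.6% of all 14973 genes, with Egr1 (2.98, SE 0.20), Myc (2.44, SE 0.11), Ier2 (2.31, SE 0.16), Atf3 (2.23, SE 0.25) and Junb (2.22, SE 0.14) higher in Neuro2a and Jun lower (-1.38, SE 0.11).

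Whether irradiation acted differently in the cell types of a species was tested as an interaction. Between HepG2 and HEK293, 0 of 10 members were called by edgeR (7.94% of all genes were) and 0 by DESeq2, while 3 had an unadjusted p under 0.05. These were JUN, with a difference in log2 fold change of 0.51 (HepG2 minus HEK293, SE 0.18, adjusted p = 0.10), JUNB (0.57, SE 0.24, adjusted p = 0.17) and MYC (0.52, SE 0.18, adjusted p = 0.10). With the replicate number as a block all 3 were called, at adjusted p of 0.016, 0.013 and 0.018, as were 21.1% of all genes. Between Neuro2a and HippCulture 2 of 9 members were called, beside 24.5% of all genes. Egr1 differed by -1.76 (Neuro2a minus HippCulture, SE 0.33, adjusted p = 0.0009) and Klf6 by -0.62 (SE 0.17, adjusted p = 0.012), both lower in Neuro2a. The call of Klf6 was lost without HippCulture irradiated replicate 3 (adjusted p = 0.052). By rank among protein-coding genes Klf6 stood lower in HippCulture, at the 4.7 percentile, than in Neuro2a, at the 7.4 percentile.

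The wider immediate early class was above the share of all genes that rose in HepG2 and near or below it elsewhere. Of 31 further immediate early genes, 14 of 23 tested rose and 0 fell in HepG2, 5 of 28 rose and 1 fell in HEK293, 7 of 26 rose and 6 fell in Neuro2a, and 3 of 30 rose and 8 fell in HippCulture. The shares that rose were 60.9%, 17.9%, 26.9% and 10.0% beside 38.1%, 24.2%, 28.9% and 26.1% of all genes, and the shares that fell were 0%, 3.57%, 23.1% and 26.7% beside 40.7%, 26.4%, 33.0% and 25.9%. The shares of all genes again include genes that are not protein-coding. The median log2 fold changes of the further immediate early genes were 0.64, 0.11, -0.09 and -0.14. IER3, an early gene that restrains cell death, rose in HepG2 from 81.4 to 158 normalized CPM without UV to 449 to 466 with UV (log2 fold change 1.84, SE 0.21, adjusted p = 5e-05, library size alone 0.53), and it also led the list in HEK293 with MAFF, a small bZIP factor (IER3 1.27, SE 0.25; MAFF 1.57, SE 0.39). GADD45B, a stress sensor, rose by 1.58 (SE 0.10) in HepG2, and Gadd45b by 1.45 (SE 0.16) in Neuro2a and 0.72 (SE 0.29) in HippCulture, where its groups overlapped. Hes1, a Notch target, rose by 0.70 (SE 0.25) in HippCulture, and Ier3 by 1.40 (SE 0.15) in Neuro2a. For these increases library size alone kept the sign, with values of 0.16 to 0.81. On the lower side stood Nr4a3, an orphan nuclear receptor (-2.44, SE 0.52 in Neuro2a; -0.96, SE 0.10 in HippCulture), Klf10 (-1.57, SE 0.11 in Neuro2a), the AP-1 subunit Fosl2 (-1.06, SE 0.08 in HippCulture) and MCL1, which blocks apoptosis (-0.66, SE 0.15 in HEK293).

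Of 10 neuronal activity genes, 2 of 4 tested rose and 2 fell in HepG2, 2 of 9 rose and 1 fell in HEK293, 3 of 6 rose and 1 fell in Neuro2a, and 2 of 10 rose and 3 fell in HippCulture. With so few genes these counts are hard to read against all genes, of which 38.1%, 24.2%, 28.9% and 26.1% rose and 40.7%, 26.4%, 33.0% and 25.9% fell, and those of HEK293 and HippCulture lay near these shares for the genes that rose. HOMER1, a postsynaptic scaffold, fell in each cell type, with -0.45 (HepG2, SE 0.08), -0.60 (HEK293, SE 0.15), -1.77 (Neuro2a, SE 0.14) and -0.97 (HippCulture, SE 0.09). ARC, the activity-regulated synaptic protein, was higher in HEK293 (1.16, SE 0.29), Neuro2a (0.60, SE 0.12, library size alone -0.60) and HippCulture (0.62, SE 0.24), the last with overlapping groups. In HippCulture Nrgn, a postsynaptic calmodulin-binding protein, rose (0.86, SE 0.09) and Bdnf, a neurotrophin, fell (-0.68, SE 0.13). PER1, a circadian clock gene, rose in HepG2 (0.43, SE 0.13, library size alone -0.87) and Per1 in Neuro2a (0.61, SE 0.24, library size alone -0.58). VGF, a neuropeptide precursor, also rose in HepG2 (0.90, SE 0.36, library size alone -0.40). The groups of Per1 in Neuro2a and of VGF in HepG2 overlapped, and VGF was low, at 0.515 to 1.06 normalized CPM without UV. PCSK1, a prohormone convertase, fell by -3.70 (SE 0.48) in HepG2.

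Among 22 upstream regulators and partners of the immediate early genes, more genes fell than rose in every cell type, as was also true of all genes in HepG2, HEK293 and Neuro2a. HepG2 had 6 that rose and 10 that fell, HEK293 had 3 and 12, Neuro2a 3 and 14, and HippCulture 4 and 16. The shares that fell were 45.5%, 54.5%, 63.6% and 72.7%, beside 40.7%, 26.4%, 33.0% and 25.9% of all genes, so that HepG2 was near the share of all genes. The median log2 fold changes were -0.17, -0.54, -0.82 and -0.55. MAP2K2, the kinase above ERK, rose by 1.88 (HepG2, SE 0.08), 1.47 (HEK293, SE 0.15), 1.66 (Neuro2a, SE 0.11) and 1.25 (HippCulture, SE 0.09), and MAPK3, which encodes an ERK kinase, by 1.72 (SE 0.10), 1.18 (SE 0.13), 0.75 (SE 0.14, library size alone -0.45) and 0.81 (SE 0.10). The SRF coactivator gene MRTFB fell by -1.79 (SE 0.20) in HepG2 and -1.15 (SE 0.16) in HEK293, the SRF partner ELK4 by -1.79 (SE 0.16) in HEK293, and Creb1, which encodes the cAMP-responsive factor CREB, by -1.99 (SE 0.11) in Neuro2a and -1.09 (SE 0.11) in HippCulture. The kinase gene RPS6KA3 fell by -1.37 (SE 0.28) in HepG2 and Rps6ka3 by -1.81 (SE 0.12) in Neuro2a, and Mapk8, which encodes JNK1, fell by -1.13 (SE 0.09) in HippCulture.

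**Figure D5:**
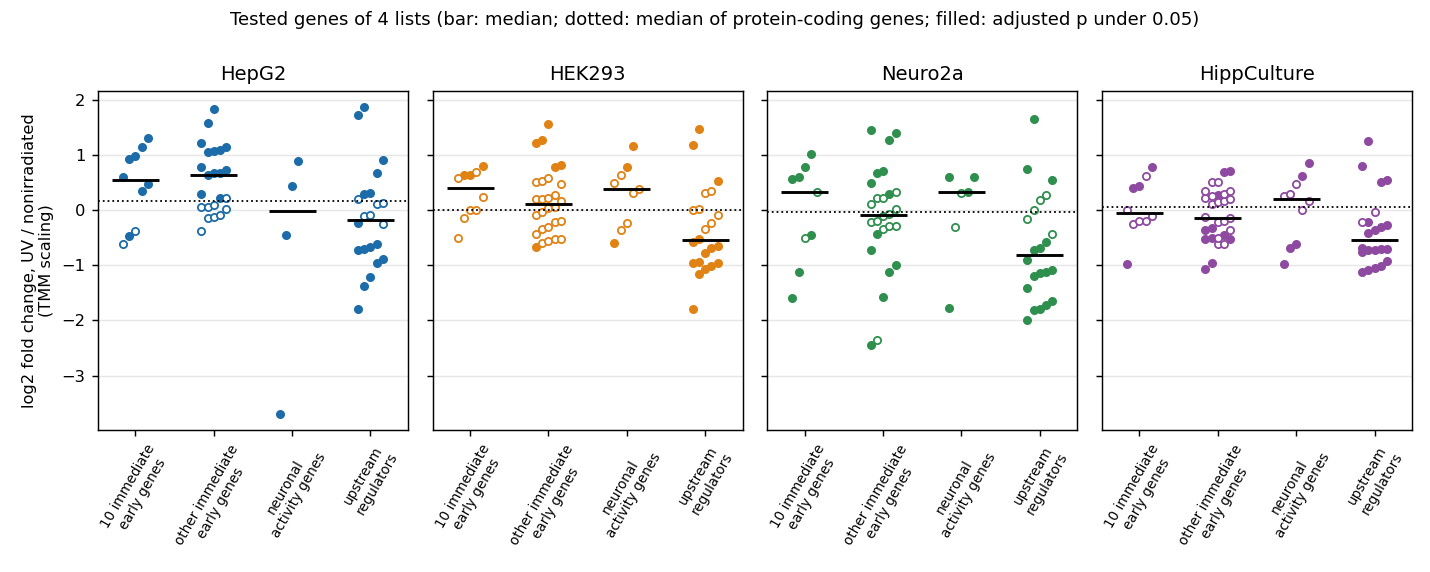
Log2 fold change upon UV irradiation (vertical axis, TMM scaling) of the tested genes of 4 lists (horizontal axis) in each cell type; filled points passed an adjusted p of 0.05, bars are list medians and the dotted line is the median of protein-coding genes. The upstream regulators have medians below 0 in all 4 cell types, and the immediate early lists have medians of 0.54 and 0.64 in HepG2, values above 0 that library size alone turned for the 10 genes (-0.76).

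Likeness of pattern was measured as the Euclidean distance between the 4 log2 fold changes, one per cell type, over 9470 protein-coding genes tested in all 4. The nearest gene was TBC1D9B for JUN (distance 0.06), RBKS for ATF3 (0.08), PLSCR3 for JUNB (0.09), APP for MYC (0.12), PATL1 for KLF6 (0.15), AP3S1 for FOS (0.16), CDK2AP1 for IER2 (0.16), PGRMC1 for DUSP1 (0.18) and TIRAP for EGR1 (0.50). None of these neighbors belongs to the immediate early, neuronal activity or upstream lists. Those lists hold a very small part of the 9470 genes, so this absence says little about the class. PLSCR3, for instance, had log2 fold changes of 1.32, 0.60, 0.73 and 0.50 in HepG2, HEK293, Neuro2a and HippCulture, beside 1.31, 0.63, 0.78 and 0.43 for JUNB.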

How the data were processed

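RNA of UV-irradiated and nonirradiated cells was sequenced after removal of rRNA. The authors mapped reads with TopHat2 (2.1.1 per the submitters' notes) to hg38 or mm10, and deposited whole-number counts per gene, without normalization, made with featureCounts on GENCODE 28 or M17 exons (version 1.5.3 for HepG2, 1.6.1 for the others, per the file headers). Reads on several genes were counted for each, and the commands name no strand or multimapping option. Whether the libraries kept the strand is not given consistently in the sources used here.

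All 24 samples were used, grouped by the labels. Within each cell type, genes with a mean of at least 0.5 CPM in nonirradiated samples were compared with edgeR 4.0.16 (TMM, quasi-likelihood test) in R 4.3.3, with Benjamini-Hochberg adjustment over all genes tested, at an adjusted p under 0.05. SE is the log2 fold change divided by the square root of F. The exact permutation test of 3 against 3 cannot go below 0.1, which genes without overlap between groups reach. Replicates are separate samples by label only, so p-values measure the spread between these samples. Symbols and gene types came from GENCODE 44 and M21. Promoter sequences came from RefSeq (GRCh38.p14), and 3′ UTRs from the transcript with the longest ORF. The steps were tested on simulated data in which 200 genes changed, equally up and down. The simulation held no shift between libraries such as the TMM factors show here, so it did not test the scaling. Depth was 6910907 to 53511592 counts per sample, which limits genes with few counts.

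Deviations of same-numbered HEK293 samples correlated at 0.302 to 0.589, all above 0.1, so these numbers were taken as pairing, from the data. Nonirradiated replicate 2 also correlated with irradiated replicate 3 at 0.236, and 3 with 2 at 0.22. The numbers thus set replicate 1 apart more clearly than they pair replicates 2 and 3, and p-values with the block rest on this choice. In the other cell types the lowest such correlation was -0.01 to 0.083, and the numbers were not taken as pairing. In Neuro2a all such correlations, 0.083 to 0.228, were still above those of differently numbered samples, at most 0.073. In HippCulture they were 0.048 to 0.126, against at most 0.03. Only the cutoff of 0.1 set the numbers of these mouse cell types aside. Alternatives were DESeq2 1.42.0 as the test or for size factors, other filters, library size alone, TMM on protein-coding genes, the replicate block and leaving out each sample.

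The members and lists were chosen with earlier results of these data known. Genes named from the wider lists are, per list and cell type, up to 2 called genes with the most positive and up to 2 with the most negative log2 fold change; HOMER1, ARC, MAP2K2 and MAPK3 recur under this rule. The deposited counts of other genes entered only as background.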

Additional observations from a re-analysis of the deposited data

Results flagged for a closer look

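Egr1 was flagged because its change upon UV irradiation differed between Neuro2a and HippCulture by the interaction test, by -1.76 in log2 fold change (SE 0.33, adjusted p = 0.0009). It was lower in each irradiated Neuro2a sample than in each nonirradiated one, and its groups overlapped in HippCulture. The difference stayed called in all 12 fits that left out a sample, at -1.95 to -1.52. Klf6 was flagged on the same grounds, with a difference of -0.62 (SE 0.17, adjusted p = 0.012), and it fell in both cell types. Its call was lost without HippCulture irradiated replicate 3 (adjusted p = 0.052). Its rank among protein-coding genes went the other way, at the 4.7 percentile in HippCulture and the 7.4 percentile in Neuro2a. The neuron markers of HippCulture summed to 1650 to 2160 CPM after irradiation and to 3230 to 3620 CPM without it. Those of Neuro2a summed to 265 to 301 CPM and 664 to 773 CPM, so that they were lower after irradiation in both cell types. These sums are on library size alone, a scale that moved the median gene by -0.54 in HippCulture and -1.19 in Neuro2a relative to TMM. The part of the markers in these differences was not tested.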

How the results depend on the processing

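KLF6 stayed below 0 and was called in both mouse cell types under every setting tried, and in HepG2 all 7 calls of a higher level stayed in each fit without a sample. Library size alone was the setting that changed most, by its construction: it called 0 members higher in HepG2, HEK293, Neuro2a and HippCulture, and 8, 4, 8 and 5 lower, and its log2 fold changes turned for FOS (-0.38), JUN (-0.70), JUNB (-0.0026), IER2 (-0.96), ATF3 (-0.31), DUSP1 (-0.16) and MYC (-0.83) in HepG2, FOS (-0.07), FOSB (-0.52), JUN (-0.76), JUNB (-0.12), EGR1 (-0.18), IER2 (-0.76) and DUSP1 (-0.12) in HEK293, Jun (-0.87), Junb (-0.42), Ier2 (-0.17), Atf3 (-0.64) and Dusp1 (-0.59) in Neuro2a, and Fosb (-0.51), Jun (-0.14) and Junb (-0.13) in HippCulture. In the same setting the differences between cell types turned for FOS (-0.31), IER2 (-0.21), ATF3 (-0.36) and DUSP1 (-0.041) between the human lines and for Junb (-0.26) and Ier2 (-0.38) between the mouse cell types, where 4 members were called more negative in Neuro2a, and the level differences for DUSP1 (-0.13, human) and Fos (0.06, mouse). For the other settings the cause was not tested. DESeq2 as the test, or testing every gene with at least 1 count, called 2 members lower in HepG2. In Neuro2a 3 members were called higher with DESeq2 as the test or for size factors and with TMM on protein-coding genes. Testing every gene with at least 1 count, or requiring 10 counts in every sample, also called 3 higher there. In HEK293 a minimum of 10 counts in every sample called 0 members higher and 1 lower, every gene with at least 1 count called 1 lower, and the replicate block called 4 higher and 1 lower. Between HepG2 and HEK293 the block called 3 members more positive in HepG2, testing every gene with at least 1 count called 1 more negative and found 5 members at a higher level in HepG2. The block also called Jun in Neuro2a (adjusted p = 0.0074), where the numbers were not taken as pairing, and changed no other call than those given in the report. Values near 0 turned sign for JUN in HEK293 (TMM on protein-coding genes -0.02, every gene -0.0067, 10 counts -0.11, 0.5 CPM over all samples -0.033), IER2 in HEK293 (DESeq2 size factors -0.0014, TMM on protein-coding genes -0.022, DESeq2 -0.00053, every gene -0.0082, 10 counts -0.11, 0.5 CPM over all samples -0.033), Fosb in HippCulture (DESeq2 size factors -0.0046, TMM on protein-coding genes -0.05, DESeq2 -0.043, every gene -0.015, 0.5 CPM over all samples -0.011, replicate block -0.018), the human level difference of IER2 (TMM on protein-coding genes 0.035, every gene 0.13, 10 counts 0.048, 0.5 CPM over all samples 0.0077) and the mouse level differences of Fos (TMM on protein-coding genes 0.011, every gene 0.034, 0.5 CPM over all samples 0.08) and Dusp1 (DESeq2 size factors -0.0041, DESeq2 -0.0029). Leaving out 1 sample at a time gave 0 to 3 members higher and 0 to 1 lower in HEK293 (0 higher without irradiated replicate 2 or 3, 1 without nonirradiated replicate 1 or 3), 7 higher and 0 to 2 lower in HepG2, 3 to 4 higher and 3 lower in Neuro2a, and 2 to 4 higher and 1 lower in HippCulture. It gave 0 to 1 members more positive in HepG2 than in HEK293, and 0 to 1 more positive and 1 to 2 more negative in Neuro2a than in HippCulture. Without a sample the sign turned for uncalled members only, with ranges of -0.09 to 0.12 for JUN and -0.05 to 0.12 for IER2 in HEK293, -0.47 to 0.53 for Atf3, -0.49 to 0.19 for Fos and -0.26 to 0.28 for Fosb in HippCulture, differences between cell types of -0.14 to 0.32 for ATF3, -0.16 to 0.40 for FOS, -0.25 to 0.20 for KLF6 and -0.66 to 0.015 for Fos, and level differences of -0.015 to 0.32 for DUSP1, -0.11 to 0.041 for IER2, -0.21 to 0.32 for Fos and -0.044 to 0.15 for Klf6. Depth limits FOSB in every cell type, EGR1 in HEK293 and Dusp1 in both mouse cell types.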
